A study of Bos taurus with 8 samples.

Results

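The genes described here handle fatty acids in the bovine oocyte and the lipid droplets that store them. They were chosen by symbol from a list of 44, and 43 were found among the 26804 genes of the expression table; DGAT2 was not analysed here. They were kept apart by role: 7 genes of droplet storage, 5 of fatty acid activation, 4 of lipolysis, 12 of beta-oxidation, 10 of fatty acid synthesis, 3 of uptake and binding, and 2 nuclear receptors. All 43 were above 0 in every library, and 42 passed the expression filter of the test, MGLL being the exception.

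RNA sequencing was done on oocytes collected by ultrasound-guided ovum pick-up from non-pregnant, non-lactating, multiparous beef cows kept together outdoors. The groups were summer oocytes, collected in August (4 libraries, A, B, C and E), and winter oocytes, collected in an earlier session (4 libraries, A, B, D and E). In both seasons the cows received progesterone, a GnRH analogue and follicle-stimulating hormone before collection, only the better grades of cumulus-oocyte complex were kept, and the oocytes were stripped of cumulus cells at the germinal vesicle stage. The same cows were sampled in both seasons, and the RNA of 2 cows was combined in each library. The paper left out a summer replicate that failed quality control together with its corresponding winter replicate. Whether a letter marks the same cows in both seasons was not given in the sources, so the libraries were compared unpaired. Each season was 1 collection session, so season and session cannot be told apart. The paper recovered fewer oocytes of the best grade in summer than in winter, and the grades in each library were not given. Season and oocyte grade therefore cannot be told apart either. Values are given below in the order of the library letters.

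An oocyte holds much of its energy as triglyceride in lipid droplets, and bovine oocytes are known for being rich and dark with them. Perilipins coat the droplet, acyltransferases and lipins build triglyceride, and lipases release the fatty acids again. Before use a fatty acid is joined to coenzyme A by an acyl-CoA synthetase. Carnitine palmitoyltransferases then carry it into the mitochondrion, where beta-oxidation shortens it step by step, while the synthesis enzymes build, lengthen and desaturate fatty acids in the cytosol and endoplasmic reticulum.

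The values are TPM, a transcript share corrected for length that sums to 1000000 in every library, so depth is not kept and the counting error is unknown. Of all genes, 12489 passed the expression filter in summer and 13129 in winter, and the 13379 that passed in either season were tested on log2(TPM + 1) with limma. The median difference over all of them was -0.03. Calling needed 2-fold as well as an adjusted p below 0.05, and the share past the adjusted p alone is given beside it. Each difference below is the summer mean less the winter mean of log2(TPM + 1), with its standard error (SE).

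The libraries also differed in the summed levels of cell type marker genes. The summed TPM of 17 oocyte markers was 14000 to 16360 in summer and 4257 to 10480 in winter, with no overlap, and winter E was the lowest. Theca and stroma markers summed to 209 to 301 TPM in summer, against 449 to 2441 TPM in winter. The theca genes of that list did not share this: INSL3 was at 85.8 to 142 TPM in summer and 68.2 to 168 TPM in winter. CYP17A1 was at most 0.852 TPM in any library. Cumulus and granulosa markers summed to 6859 to 10210 TPM in summer and 8092 to 34500 TPM in winter, where winter E stood far above the rest. The largest parts of the winter E sum were INHA (17260 TPM), SERPINE2 (7970 TPM) and INHBA (4449 TPM). Not all of the list rose there: AMH and HSD17B1 lay within their summer ranges, and STAR was at its lowest (117 TPM). Scaling each library to its oocyte markers moved the median difference of all genes to -1.08, and the differences of the genes below were therefore also taken relative to that shift. Such scaling moves most genes by nearly the same amount, so values relative to the shift fall near the unscaled ones by construction. They are no separate support. In pooled oocytes, fewer cells of a type and less RNA per cell cannot be told apart, and the part that these marker differences have in the results was not tested. Adipocyte markers were at or near 0: ADIPOQ, the adipocyte hormone adiponectin, was listed at 0 in all 8 libraries, and the list of 6 summed to 1.39 to 6.71 TPM in summer and 2.17 to 92.7 TPM in winter. The top of that range was CFD in winter A, at 91.1 TPM.

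**Figure D1:**
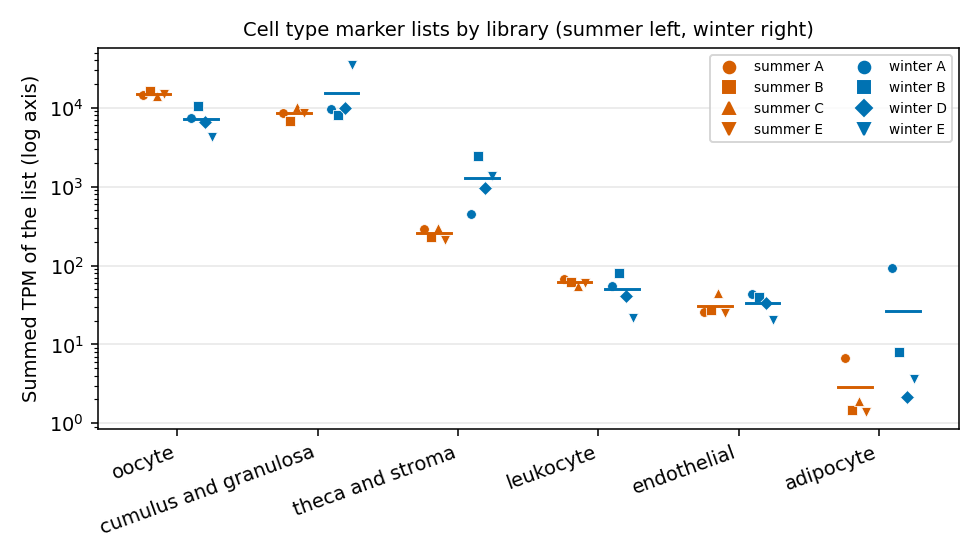
Summed TPM (log axis) of the cell type marker lists in each library, summer on the left of each pair and winter on the right, with a bar at each mean (n = 4 each). Oocyte markers are higher in every summer library (14000 to 16360 TPM) than in any winter library (4257 to 10480 TPM), and theca and stroma markers are lower (209 to 301 against 449 to 2441 TPM).

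Among the 42 tested genes, 0 were called higher in summer, where 4.4% of all tested genes were called higher. At an unadjusted p under 0.05 in limma the count was 6 higher, none of them by 2-fold, and 8 lower. The share of all tested genes at that unadjusted p was not computed, so these counts have no background. ACSL4 and CPT1A, 2 of 42, were called lower, where 5.17% of all tested genes were. With the adjusted p alone, FABP3, ACACB, LIPE, HADH and FABP5 were higher in summer (5 of 42, 11.9%, against 14.9% of all tested genes). These directions turned under oocyte marker scaling, and relative to its shift the differences came back near their unscaled values by construction. With the adjusted p alone, ACSL4, PLIN3, CPT1A and FADS2 were lower (4 of 42, 9.52%, against 11.9% of all tested genes). Seasons did not overlap for 5 genes that were higher in summer (LIPE, HADH, ACAA1, ACACB and FABP3), where 15.4% of all tested genes did not overlap in that direction, and for 3 that were lower (PLIN3, AGPAT1 and ACSL4), where 14.1% did not. These shares were near or below those of all tested genes. The median difference over the 42 was -0.18, with 15 differences above 0 and 27 below. Single libraries moved these counts. At the adjusted p alone, 7 genes were lower without winter B and 2 without summer B, summer E, winter A or winter D, and FABP5 or LIPE passed 2-fold as well without summer C, winter A or winter B.

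**Figure D2:**
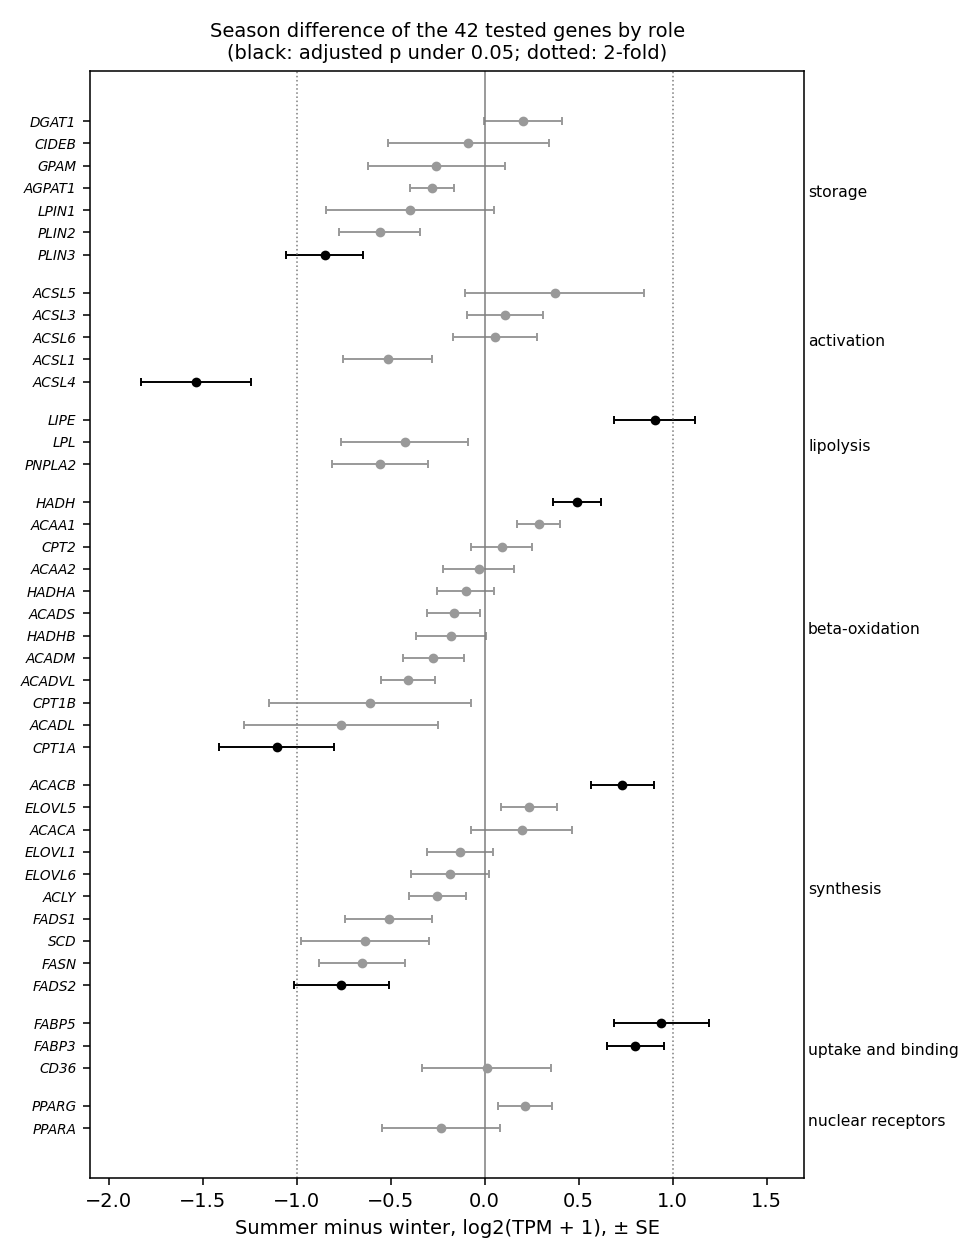
Difference between the seasons (summer minus winter, log2(TPM + 1), points with SE bars, n = 4 libraries each) for the 42 tested genes, grouped by role. Black marks the 9 genes past an adjusted p of 0.05, and the dotted lines mark 2-fold; only ACSL4 (-1.54) and CPT1A (-1.11) lie beyond a dotted line, both lower in summer.

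Levels spanned a wide range. SCD, the desaturase that makes oleic acid, averaged 633 TPM over the 8 libraries and lay at percentile 98.4 of the tested genes, and PLIN2 followed with 279.6 TPM at percentile 96.1. The median tested gene had 23.6 TPM. A mean above 100 TPM was found for 9 of the 43 genes, a mean of 10 to 100 TPM for 25, and a mean under 10 TPM for 9. Of all TPM, the 43 genes together took 0.273% ± 0.030 in summer oocytes and 0.310% ± 0.024 in winter oocytes (SD, n = 4 each), and the ranges overlapped.

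Among the storage genes, 1 of 7 passed the adjusted p, and it was lower in summer (14.3%, against 11.9% of all tested genes). PLIN3 (ENSBTAG00000011805), a perilipin that moves between the cytosol and nascent droplets, had 29.9, 18.0, 27.6 and 18.1 TPM in summer A, B, C and E, against 36.9, 47.4, 44.6 and 39.7 TPM in winter A, B, D and E. Every summer library was below every winter library. Its difference was -0.85 (SE 0.20, adjusted p 0.0141 in limma), short of 2-fold, and it kept an adjusted p under 0.05 with any 1 of the 8 libraries left out.

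PLIN2, the perilipin that coats droplets in most cells and the most abundant storage transcript, had 212, 227, 175 and 281 TPM in summer, against 355, 327, 441 and 219.5 TPM in winter. Winter E lay within the summer range, so the seasons overlapped. The means were 224 ± 43.9 TPM in summer and 335 ± 91.3 TPM in winter (SD, n = 4 each), a difference of -0.56 (SE 0.22) that did not pass (adjusted p 0.0759 in limma). PLIN2 took 59.8% ± 6.84 of the summed storage TPM in summer and 64.3% ± 5.57 in winter.

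AGPAT1, an acyltransferase on the way to triglyceride and phospholipid, was the next most abundant. Its summer values were 73.1, 66.0, 75.3 and 70.7 TPM, against 81.0, 82.7, 92.6 and 90.8 TPM in winter. All of its summer values were lower, but the difference of -0.28 (SE 0.12) did not pass (adjusted p 0.0993 in limma). DGAT1, which catalyses the last step of triglyceride synthesis, had a mean of 44.2 ± 9.21 TPM in summer and 38.5 ± 9.12 TPM in winter (SD, n = 4 each; adjusted p 0.483 in limma).

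The other storage genes were scarce. CIDEB, known for droplet and lipoprotein handling in the mouse liver, was at 0.952 to 4.80 TPM in summer and 1.10 to 4.05 TPM in winter. GPAM, the mitochondrial enzyme that starts glycerolipid synthesis, was at 0.564 to 3.91 TPM in summer and 2.18 to 3.19 TPM in winter. LPIN1, a phosphatidate phosphatase, was at 2.75 to 6.06 TPM in summer and 3.34 to 17.6 TPM in winter, where winter A gave the top value. Of these, 0 of 3 passed, and their adjusted p values were 0.523 to 0.895 in limma. Over the 7 storage genes, the summed level was 372 ± 35.0 TPM in summer and 516 ± 101.9 TPM in winter (SD, n = 4 each), with overlap through winter E at 389 TPM, and the median difference was -0.28.

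The activation genes are the 5 long-chain acyl-CoA synthetases, and they held the largest season difference of the 42 genes. ACSL4 (ENSBTAG00000018986), the isozyme known for its preference for arachidonic acid, had 12.6, 13.5, 12.1 and 20.6 TPM in summer, against 65.8, 27.5, 58.6 and 34.0 TPM in winter. Summer E was the highest summer library and was still below winter B, the lowest of winter. The means were 14.7 ± 4.0 TPM in summer and 46.5 ± 18.6 TPM in winter (SD, n = 4 each), 3.16-fold higher in winter. Its difference of -1.54 (SE 0.29, adjusted p 0.0070 in limma) stayed past both limits with any 1 library left out, between -1.75 and -1.34.

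In winter A, B, D and E, where ACSL4 had those values, theca and stroma markers summed to 449, 2441, 953 and 1377 TPM. Cumulus and granulosa markers summed to 9711, 8092, 9808 and 34500 TPM and adipocyte markers to 92.7, 7.92, 2.17 and 3.62 TPM in the same libraries. Of the 92.7 TPM in winter A, CFD alone gave 91.1 TPM. The part of these markers in the ACSL4 difference was not tested.

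ACSL3, the isozyme known on the endoplasmic reticulum and on growing droplets, overlapped between the seasons, with 45.8, 40.4, 45.8 and 33.6 TPM in summer and 49.3, 29.5, 45.9 and 31.5 TPM in winter. The difference was 0.11 (SE 0.20, adjusted p 0.709 in limma). ACSL1, typical of oxidative and lipid-storing tissues, was at 4.07 to 5.95 TPM in summer and 5.66 to 8.83 TPM in winter (adjusted p 0.123 in limma).

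ACSL5, an isozyme of mitochondria and endoplasmic reticulum, was even in summer (10.6 to 14.2 TPM) but not in winter, where it had 25.1, 13.3, 5.88 and 3.19 TPM. The summer range lay inside the winter range (adjusted p 0.575 in limma). ACSL6, best known from brain, was at 6.84 to 10.9 TPM in summer and 7.75 to 9.34 TPM in winter (adjusted p 0.867 in limma).

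The isozymes were also compared as shares of the summed TPM of the 5 genes, a measure formed with the values already known and given without a test. ACSL4 made up 15.5, 17.3, 14.1 and 24.6% in summer, against 42.1, 31.7, 46.1 and 40.6% in winter. ACSL3 made up 56.4, 51.6, 53.4 and 40.0% in summer, against 31.6, 34.0, 36.1 and 37.6% in winter. ACSL3 was thus the leading isozyme in all 4 summer libraries, while ACSL4 led in winter A, D and E and came just under ACSL3 in winter B. Shares within a library do not depend on how libraries are scaled to each other. They can still depend on the mix of RNA from different cell types, and the part of that mix in them was not tested.

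**Figure D3:**
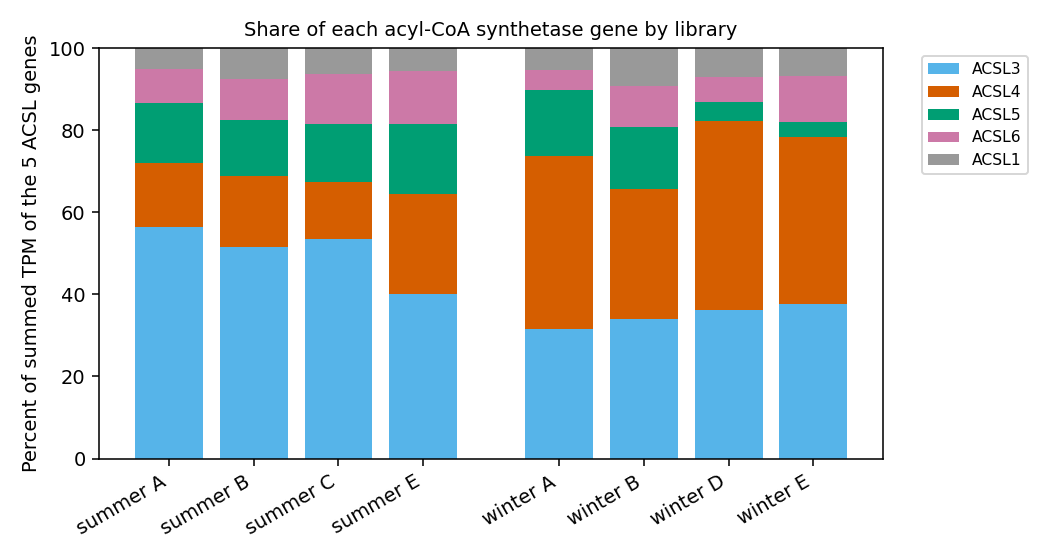
Share of each acyl-CoA synthetase gene in the summed TPM of the 5 genes (percent, stacked bars, 1 bar per library, summer on the left). ACSL4 takes 14.1 to 24.6% in the summer libraries and 31.7 to 46.1% in the winter libraries.

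Among the lipolysis genes, 1 of 3 tested passed the adjusted p, and it was higher in summer, where 14.9% of all tested genes were. LIPE (ENSBTAG00000038321), hormone-sensitive lipase, which mainly splits diglyceride and cholesteryl esters, had 44.0, 42.4, 41.6 and 34.7 TPM in summer, against 27.7, 27.3, 17.4 and 15.2 TPM in winter. No summer library was as low as any winter one. Its difference was 0.90 (SE 0.22, adjusted p 0.0144 in limma), which became -0.20 under oocyte marker scaling and 0.88 relative to the shift of all genes there. It kept an adjusted p under 0.05 with any 1 library left out, and passed 2-fold without winter A (1.03) or winter B (1.022).

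PNPLA2, adipose triglyceride lipase, which takes the first fatty acid from triglyceride, had 44.3, 30.1, 26.5 and 45.1 TPM in summer, against 75.2, 34.0, 54.1 and 55.6 TPM in winter. Its summer A and E values exceeded winter B, and the difference of -0.56 (SE 0.26) did not pass (adjusted p 0.125 in limma). LPL, which works outside the cell on lipoprotein triglyceride, had 19.5, 22.3, 33.8 and 9.28 TPM in summer and 30.2, 33.2, 18.6 and 25.7 TPM in winter. Its seasons overlapped widely (difference -0.43, SE 0.34, adjusted p 0.360 in limma).

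MGLL, the monoglyceride lipase that finishes the pathway, was too low to be tested, with 1.61, 0.758, 0.0634 and 0.251 TPM in summer and 0.970, 2.94, 0.132 and 2.21 TPM in winter. The ratio of LIPE to PNPLA2 was 0.770 to 1.57 in summer and 0.273 to 0.803 in winter, so the ranges met at summer E and winter B. Ratios such as this were formed with the values known and carry no test. Summed over the 4 lipolysis genes, the level was 99.1 ± 8.61 TPM in summer and 105 ± 19.7 TPM in winter (SD, n = 4 each).

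In beta-oxidation, 2 of 12 genes passed the adjusted p, in opposite directions. That is 8.33% in each direction, below the 14.9% higher and 11.9% lower of all tested genes. CPT1A (ENSBTAG00000021999), the carnitine palmitoyltransferase that commits long-chain fatty acids to the mitochondrion, had 9.98, 9.29, 8.12 and 7.91 TPM in summer, against 28.8, 24.7, 22.8 and 9.81 TPM in winter. Winter E lay within the summer range and the other 3 winter libraries lay far above it. The means were 8.83 ± 0.980 TPM in summer and 21.6 ± 8.22 TPM in winter (SD, n = 4 each), 2.44-fold higher in winter.

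The CPT1A difference was -1.11 (SE 0.30, adjusted p 0.0239 in limma). Without winter E it was -1.43 with an adjusted p of 0.0060, and without summer A the adjusted p was 0.0327. Leaving out any of the other 6 libraries (summer B, C or E, winter A, B or D) gave an adjusted p between 0.0502 and 0.0673, with differences of -1.13 to -0.94.

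HADH (ENSBTAG00000002049), the 3-hydroxyacyl-CoA dehydrogenase of short and medium chains, had 159.7, 147, 150.0 and 156 TPM in summer, against 109, 122, 116 and 90.6 TPM in winter. All 4 summer values were above all winter values, and its mean over the 8 libraries was the highest of the 12 genes. The difference was 0.49 (SE 0.13, adjusted p 0.0192 in limma), which became -0.64 under oocyte marker scaling and 0.43 relative to the shift there. It stayed past an adjusted p of 0.05 with any 1 library left out.

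HADHA, the alpha subunit of the mitochondrial trifunctional protein, which handles long chains, was second in abundance, with 99.3, 107, 131 and 127 TPM in summer and 103, 133, 148 and 116 TPM in winter. Its partner HADHB, the beta subunit, averaged 59.2 ± 11.5 TPM in summer and 66.8 ± 11.3 TPM in winter (SD, n = 4 each). Neither passed (adjusted p 0.634 for HADHA and 0.487 for HADHB in limma). The HADHA to HADHB ratio was 1.99 ± 0.260 in summer and 1.88 ± 0.056 in winter.

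ACAA1, the peroxisomal thiolase, had 85.9, 86.5, 83.8 and 94.4 TPM in summer, against 74.1, 72.5, 69.9 and 70.0 TPM in winter. The seasons did not overlap, but the difference of 0.29 (SE 0.11) did not pass (adjusted p 0.0816 in limma), and it turned to -0.84 under oocyte marker scaling. ACAA2, the mitochondrial thiolase, averaged 27.2 ± 4.88 TPM in summer and 27.8 ± 4.17 TPM in winter (SD, n = 4 each; adjusted p 0.912 in limma).

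The acyl-CoA dehydrogenases, which open each round of oxidation and are named for chain length, all had differences below 0, and 0 of 4 passed. ACADVL, for very long chains, came nearest, with 92.2, 68.0, 75.6 and 83.6 TPM in summer, against 103, 92.1, 105 and 124 TPM in winter. Only summer A reached the winter range, and the difference was -0.41 (SE 0.14, adjusted p 0.0575 in limma). ACADM, for medium chains, averaged 44.1 ± 2.88 TPM in summer and 54.1 ± 10.2 TPM in winter, and ACADS, for short chains, 79.6 ± 13.0 TPM in summer and 88.8 ± 7.49 TPM in winter (SD, n = 4 each). ACADL, for long chains, had 0.643 TPM in summer A, against 6.58 to 10.1 TPM in the other 7 libraries.

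CPT1B, the muscle-type carnitine palmitoyltransferase, was at 1.33 to 4.73 TPM in summer and 1.56 to 15.4 TPM in winter, where winter A was the highest. CPT2, which rebuilds the acyl-CoA inside the mitochondrion, averaged 32.4 ± 2.52 TPM in summer and 30.6 ± 5.27 TPM in winter (SD, n = 4 each). Neither passed (adjusted p 0.411 for CPT1B and 0.696 for CPT2 in limma). Summed over the 12 genes, the level was 697 ± 27.9 TPM in summer and 717 ± 35.8 TPM in winter (SD, n = 4 each), and the median difference was -0.17.

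In fatty acid synthesis, 2 of 10 genes passed the adjusted p, again in opposite directions. That is 10% in each direction, below the 14.9% higher and 11.9% lower of all tested genes. ACACB (ENSBTAG00000022058), the acetyl-CoA carboxylase of the mitochondrial surface, whose malonyl-CoA inhibits CPT1, had 42.5, 48.7, 46.8 and 48.1 TPM in summer, against 29.7, 35.1, 24.5 and 22.6 TPM in winter. The seasons did not overlap. Its difference was 0.73 (SE 0.17, adjusted p 0.0122 in limma), which became -0.38 under oocyte marker scaling and 0.70 relative to the shift there. It stayed past an adjusted p of 0.05 with any 1 library left out.

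ACACA, the cytosolic carboxylase that feeds fatty acid synthesis, was the less abundant of the pair in all 8 libraries. It averaged 18.9 ± 6.87 TPM in summer and 15.5 ± 1.87 TPM in winter (SD, n = 4 each; adjusted p 0.600 in limma). The ratio of ACACB to ACACA was 1.89 to 4.06 in summer and 1.42 to 2.56 in winter.

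FADS2 (ENSBTAG00000015505), the delta-6 desaturase of polyunsaturated fatty acids, had 37.9, 24.7, 35.8 and 26.9 TPM in summer, against 72.2, 31.9, 65.6 and 51.9 TPM in winter. Winter B lay within the summer range. The difference of -0.76 (SE 0.25) was only just past the limit (adjusted p 0.0480 in limma). It was past the limit when summer A or winter B was left out, and leaving out any of the other 6 libraries gave an adjusted p of 0.0691 to 0.126. FADS1, the delta-5 desaturase, had 35.4, 34.5, 54.7 and 57.8 TPM in summer, against 71.2, 43.5, 70.0 and 75.3 TPM in winter, again with winter B inside the summer range (adjusted p 0.120 in limma).

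SCD, the delta-9 desaturase, had 280.2, 354, 884 and 533 TPM in summer, against 723.5, 489, 726 and 1073 TPM in winter. It varied widely within summer alone, and the difference of -0.64 (SE 0.34) did not pass (adjusted p 0.179 in limma). ELOVL5, the elongase of polyunsaturated fatty acids, was second in abundance, with 207, 231, 222 and 196.5 TPM in summer and 230.5, 192, 159.7 and 153 TPM in winter. Its difference of 0.24 (SE 0.15) did not pass (adjusted p 0.250 in limma).

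FASN, fatty acid synthase, had 61.9, 67.1, 101 and 95.2 TPM in summer, against 165, 84.4, 136 and 131 TPM in winter. Winter B was inside the summer range, and the difference of -0.65 (SE 0.23) missed the limit (adjusted p 0.0551 in limma). ACLY, which makes cytosolic acetyl-CoA from citrate, averaged 102 ± 9.61 TPM in summer and 123 ± 22.2 TPM in winter (SD, n = 4 each; adjusted p 0.232 in limma).

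ELOVL1, an elongase of very long saturated chains, averaged 32.6 ± 2.43 TPM in summer and 36.3 ± 7.14 TPM in winter, and ELOVL6, which lengthens palmitate, 18.3 ± 2.09 TPM in summer and 21.3 ± 4.96 TPM in winter (SD, n = 4 each). Summed over the 10 synthesis genes, the level was 1104 ± 319 TPM in summer and 1411 ± 273 TPM in winter (SD, n = 4 each), and SCD alone made up 44.3% ± 10.2 of it in summer and 52.6% ± 7.75 in winter. The median difference was -0.22.

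Both fatty acid-binding proteins, which carry fatty acids through the cytosol, were higher in summer in TPM. FABP3 (ENSBTAG00000016819), the heart-type protein, had 157, 150.3, 128 and 151 TPM in summer, against 83.0, 106, 81.5 and 67.6 TPM in winter. Winter B was the highest winter library and stayed below every summer one. The difference was 0.80 (SE 0.15, adjusted p 0.0069 in limma), which became -0.33 under oocyte marker scaling and 0.75 relative to the shift there. It stayed past an adjusted p of 0.05 with any 1 library left out, between 0.70 and 0.91.

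FABP5 (ENSBTAG00000047330), the epidermal-type protein, had 136.5, 137.5, 102 and 143 TPM in summer, against 66.1, 117, 52.4 and 48.3 TPM in winter. Winter B lay above summer C, so the seasons overlapped. The difference was 0.94 (SE 0.25, adjusted p 0.0228 in limma), which became -0.19 under oocyte marker scaling and 0.89 relative to the shift there. Leaving out winter D, winter E, summer B or summer E gave an adjusted p of 0.0585 to 0.0671, whereas without winter B the difference was 1.21 (adjusted p 0.0023) and without summer C it was 1.05 (adjusted p 0.0328), both past 2-fold.

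The ratio of FABP3 to FABP5 was 1.05 to 1.26 in summer and 0.900 to 1.55 in winter. Per 1000 TPM of oocyte markers, FABP3 stood at 9.15 to 10.7 TPM in summer and 10.1 to 15.9 TPM in winter, and FABP5 at 7.29 to 9.47 TPM in summer and 8.01 to 11.3 TPM in winter. Of the same measure, LIPE had 2.29 to 3.0 TPM in summer and 2.61 to 3.77 TPM in winter. ACACB and HADH did not overlap on that scale and were lower in summer, with 2.90 to 3.34 TPM in summer against 3.35 to 5.30 TPM in winter for ACACB, and 8.98 to 10.9 TPM in summer against 11.7 to 21.3 TPM in winter for HADH. On that scale 0 of the 5 genes was higher in summer without overlap. Dividing by the oocyte marker sum lowers most genes in summer by nearly the same amount. It moved the median difference of all genes to -1.08. The share of all genes without overlap on that scale was not computed. These values are therefore not a result about the 5 genes.

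CD36, a scavenger receptor that takes up long-chain fatty acids, had 15.2, 13.4, 9.33 and 28.5 TPM in summer and 11.1, 19.1, 11.1 and 22.4 TPM in winter. The difference was 0.01 (SE 0.34, adjusted p 0.986 in limma). Over the 3 uptake and binding genes, the summed level was 293 ± 36.8 TPM in summer and 171 ± 48.0 TPM in winter (SD, n = 4 each), with winter B (242 TPM) just above summer C (239.5 TPM).

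Of the nuclear receptors that sense fatty acids, PPARG, best known for driving fat cell formation, had 69.4, 73.6, 82.7 and 66.6 TPM in summer and 60.3, 55.02, 60.4 and 76.7 TPM in winter. PPARA, best known for driving beta-oxidation in liver, had 4.0, 4.78, 5.79 and 11.4 TPM in summer and 6.04, 5.94, 9.12 and 8.38 TPM in winter. Neither passed, at 0.21 (SE 0.14, adjusted p 0.279) for PPARG and -0.23 (SE 0.31, adjusted p 0.593 in limma) for PPARA.

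**Figure D4:**
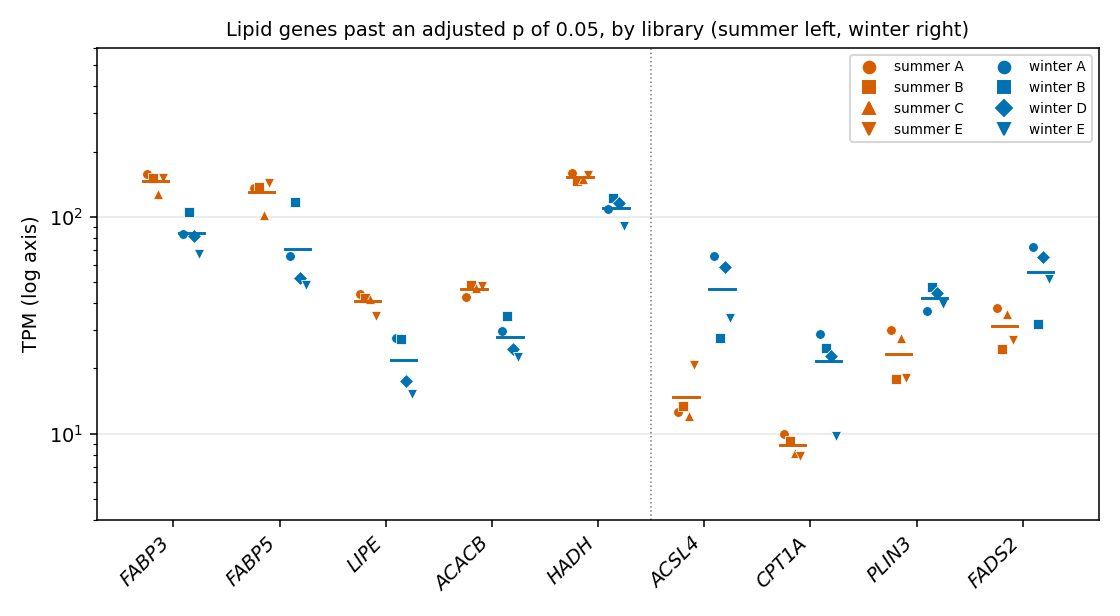
TPM (log axis) in each library of the 9 genes past an adjusted p of 0.05, summer on the left of each pair and winter on the right, with a bar at each mean (n = 4 each). Left of the dotted line are the 5 genes higher in summer in TPM, and right of it the 4 genes lower in summer. The differences of the 5 turn negative (-0.64 to -0.19) under oocyte marker scaling. Relative to its all-gene shift of -1.08 they are 0.43 to 0.89, near the unscaled values by construction. CPT1A in winter E (9.81 TPM) and FADS2 in winter B (31.9 TPM) lie within the summer range.

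The highest and lowest values of the 42 tested genes were also counted by library. Winter A held the highest of the 8 values for 11 of them and the lowest for 0. Summer A held the lowest value for 11 genes and the highest for 6, and winter E the lowest for 10 and the highest for 5. The same counts over all tested genes were not made, so these are not a result about the 42 genes. The genes highest in winter A were ACSL4, ACSL5, PNPLA2, CPT1A, CPT1B, LPIN1, FASN, ACLY, FADS2, ACSL3 and ELOVL6. This was the library with CFD at 91.1 TPM, but the rest of the adipocyte list did not stand out there. In winter A ADIPOQ, LEP, CIDEC and RETN were listed at 0, and PLIN1 had 1.58 TPM.

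A wider set of lipid genes covered the same roles and receptors, and 78 of its 82 genes were found, in 79 entries because MOGAT2 has 2. HILPDA, G0S2, PNPLA3 and ETFB were not analysed here. Of the 65 tested, 4 were called higher in summer (CIDEA, ELOVL3, CROT and ELOVL4, which turned below 0 under oocyte marker scaling for CROT at -0.11 and ELOVL4 at -0.056) and 1 was called lower (SLC27A4), where 4.4% of all tested genes were called higher and 5.17% lower. With the adjusted p alone, 10 were higher (15.4%) and 3 lower (4.62%), against the 14.9% and 11.9% of all tested genes given above. The median difference over the 65 was -0.02. The calls higher numbered 2 without summer C, winter D or winter E, and 6 without winter B, and the 10 became 4 or 5 without summer B, C or E or winter D or E. The 3 lower became 1 without summer B, C or E or winter E, and 2 without winter D, and the 1 lower call became 0 without summer B, C or E or winter E and 2 without winter A or B.

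CIDEA, which enlarges droplets by fusing them and is best known from mouse brown fat, had 17.04, 17.6, 29.8 and 25.6 TPM in summer, against 6.59, 8.07, 6.33 and 7.19 TPM in winter. Its lowest summer value was above the highest of winter by more than the whole winter range. The difference was 1.51 (SE 0.23, adjusted p 0.0045 in limma), and it stayed past both limits with any 1 library left out (1.37 to 1.63). Under oocyte marker scaling it was 0.46, or 1.54 relative to the shift, and 0 wider genes were higher at the adjusted p there.

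CROT, the peroxisomal carnitine octanoyltransferase, had 124, 127, 134 and 124 TPM in summer, against 81.9, 85.4, 59.8 and 36.1 TPM in winter. The summer libraries were close together and none overlapped with winter. The difference was 1.01 (SE 0.24, adjusted p 0.0134 in limma), and under oocyte marker scaling it was -0.11, or 0.96 relative to the shift. It kept its adjusted p with any 1 library left out, but was under 2-fold without summer C (0.99), winter D (0.99) or winter E (0.76).

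ELOVL3, an elongase of very long chains, had 7.72, 6.67, 9.56 and 13.0 TPM in summer, against 2.44, 5.43, 0.997 and 2.0 TPM in winter (difference 1.56, SE 0.37, adjusted p 0.0136 in limma). Under oocyte marker scaling the ELOVL3 difference was 0.67, or 1.75 relative to the shift, and it did not pass the adjusted p. ELOVL4, which makes the longest chains, in retina and skin for example, had 68.1, 50.4, 44.5 and 38.5 TPM in summer, against 33.6, 36.2, 20.6 and 11.6 TPM in winter. Neither gene overlapped between the seasons. The ELOVL4 difference of 1.05 (SE 0.33, adjusted p 0.0381 in limma) turned to -0.056 under oocyte marker scaling (1.02 relative to the shift), and it missed an adjusted p of 0.05 (at most 0.0907) without summer A, B, C or E or winter D or E.

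SLC27A4, a fatty acid transport protein with acyl-CoA synthetase activity, had 6.96, 4.502, 4.48 and 3.36 TPM in summer, against 10.2, 8.90, 8.49 and 15.3 TPM in winter. The seasons did not overlap, and the difference was -1.01 (SE 0.27, adjusted p 0.0232 in limma). It missed an adjusted p of 0.05 (at most 0.0660) without summer B, C or E or winter E.

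SREBF1, the transcription factor known for driving fatty acid synthesis genes, had 30.7, 27.6, 29.1 and 32.3 TPM in summer, against 59.8, 37.1, 61.3 and 65.5 TPM in winter. Winter B was again the winter library nearest to summer, as it was for FADS2, FADS1 and FASN. The difference was -0.85 (SE 0.19, adjusted p 0.0113 in limma), and it kept its adjusted p with any 1 library left out.

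The other genes past the adjusted p alone had differences under the 2-fold limit on log2(TPM + 1). In mean TPM, GPAT2 was 2.003-fold and MOGAT1 2.008-fold higher in summer. GPAT4, the most abundant glycerol phosphate acyltransferase, was at 266 to 309.5 TPM in summer, against 199.5 to 245 TPM in winter (difference 0.39, adjusted p 0.0332 in limma, and -0.75 under oocyte marker scaling, or 0.33 relative to the shift). GPAT2, a mitochondrial relative known from mouse germ cells, was at 10.9 to 16.2 TPM in summer, against 5.11 to 8.08 TPM in winter (difference 0.90, adjusted p 0.0166 in limma, and -0.13 under oocyte marker scaling, or 0.95 relative to the shift). Both had every summer library above every winter library.

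MOGAT1, which builds diglyceride from monoglyceride, was at 20.2 to 51.9 TPM in summer and 14.2 to 29.4 TPM in winter (adjusted p 0.0458 in limma), and under oocyte marker scaling its difference turned to -0.16, or 0.92 relative to the shift. HACD4, a dehydratase of fatty acid elongation, was at 49.6 to 70.8 TPM in summer and 22.8 to 51.2 TPM in winter (adjusted p 0.0328), with a turn to -0.34 under that scaling, or 0.73 relative to the shift. OXSM, the mitochondrial ketoacyl synthase, was at 20.2 to 26.4 TPM in summer and 8.56 to 19.3 TPM in winter (adjusted p 0.0286), with a turn to -0.25, or 0.83 relative to the shift. PPARD, the third peroxisome proliferator-activated receptor, was at 112 to 161 TPM in summer and 52.6 to 117.5 TPM in winter (adjusted p 0.0290), with a turn to -0.31, or 0.77 relative to the shift. SCP2, a sterol carrier and peroxisomal thiolase, was lower in summer, at 30.2 to 43.9 TPM, against 47.5 to 68.4 TPM in winter (adjusted p 0.0360).

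Of these genes GPAT2 kept an adjusted p under 0.05 with any 1 library left out. GPAT4 and SCP2 kept it only without winter B, and MOGAT1 and HACD4 only without summer A or winter B. OXSM lost it without winter E, winter D, summer C or summer B, and PPARD lost it without winter D, winter E, summer E or summer B.

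**Figure D5:**
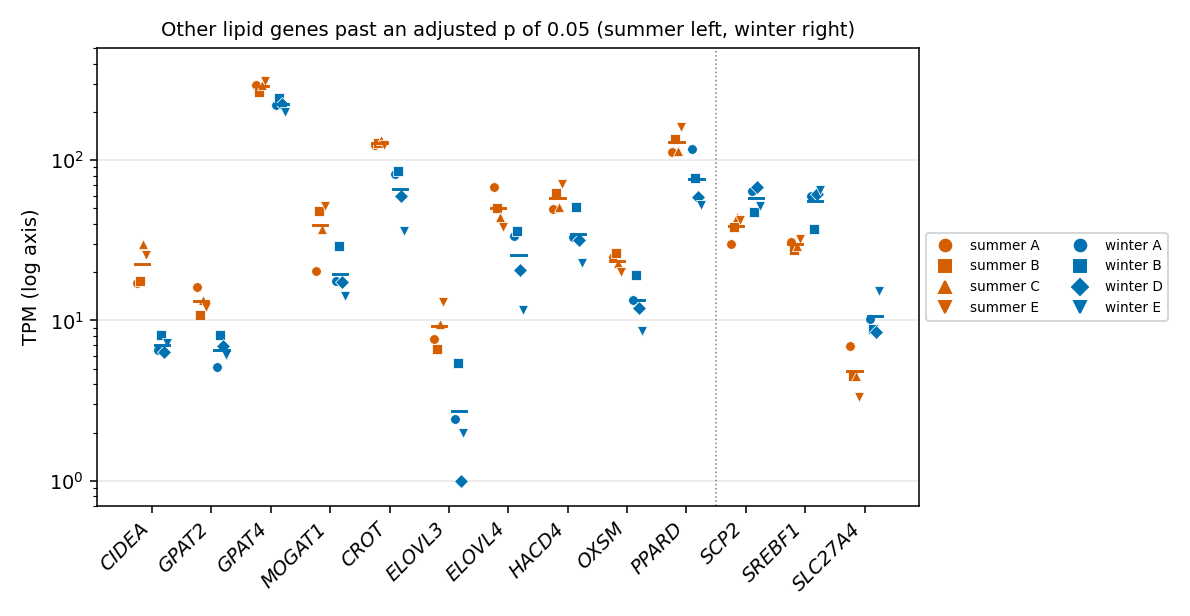
TPM (log axis) in each library of the 13 further lipid genes past an adjusted p of 0.05, summer on the left of each pair and winter on the right, with a bar at each mean (n = 4 each). CIDEA is at 17.04 to 29.8 TPM in summer and 6.33 to 8.07 TPM in winter. The genes left of the dotted line are higher in summer in TPM. Under oocyte marker scaling CIDEA (0.46) and ELOVL3 (0.67) stay above 0 without passing an adjusted p of 0.05. The rest of these genes turn below 0 under that scaling, which moves the median of all genes to -1.08. Relative to that shift the genes left of the line are at 0.33 to 1.75, near the unscaled values by construction.

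The 2 most abundant genes of each wider list were also taken, and those that did not pass included LPIN2, a phosphatidate phosphatase (86.0 to 154.5 TPM), LIPA, the lysosomal acid lipase (40.2 to 80.8 TPM), and DAGLB, a diglyceride lipase (12.7 to 22.9 TPM). Others were ECI1 and ECHS1, enzymes of mitochondrial beta-oxidation (111 to 178 TPM), SLC25A1, the citrate carrier (184 to 233 TPM), TECR, a reductase of elongation (116 to 163 TPM), and DBI, which binds acyl-CoA (79.7 to 199 TPM). Their differences lay between -0.44 and 0.33. The summed level of the wider storage genes did not overlap between the seasons, with 594.6 to 737 TPM in summer against 513 to 568 TPM in winter, and GPAT4 was the largest part of it. Among the scarce genes, FABP1, FABP2 and FABP6, the liver and gut binding proteins, were listed at 0 in all 8 libraries. FABP4, the adipocyte binding protein, was listed at 0 in 4 libraries and reached 20.7 TPM in winter B.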

How the data were processed

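Oocyte libraries (4 summer, 4 winter) were grouped by the season in their labels. The deposited values are TPM, which the authors made after trimming and mapping reads. The methods of the study name CLC Genomics Workbench with trimmed-mean scaling, whereas bcl2fastq, DESeq2, Bowtie2 2.2.2 and the build ARS-UCD1.2 are listed in the submitters' processing notes, and which made the table was not settled. Since TPM holds no depth, counting intervals could not be given. Near-identical copies and overlapping genes can share reads.

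From the TPM, zFPKM was computed per library, and genes above -3 in all 4 libraries of a season entered the test. It used limma 3.58.1 (R 4.3.3; lmFit, then eBayes with trend) on log2 of TPM plus a pseudocount of 1, modelled season alone, and adjusted p by Benjamini-Hochberg over all 13379 genes. The code was tested on simulated data. Libraries are pools of 2 cows, and p-values measure the spread between pools.

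The genes, lists and tests were chosen with earlier results of these data known. Every gene of the 43 is named; values by library are given for those past the adjusted p, those without overlap (up to 3 a role) and the 2 most abundant of each role. Of the wider genes, those past the adjusted p and the 2 most abundant of each list are named. Values by library of ACSL5, LPL, MGLL, ACADVL, FASN, FADS1 and CD36, and the naming of FABP1, FABP2, FABP4 and FABP6, were added after the values were seen. The alternatives tried were a lower and a higher pseudocount, 2 other filters, 3 other scalings, changes of moderation and weights, a block for the library letter, and leaving libraries out.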

Additional observations from a re-analysis of the deposited data

Results flagged for a closer look

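Within a season, 1 library stood apart from the other 3 (Dixon's test at 95%) in 8 of 128 groups of 4 values, 6 of them among the 86 groups of the 43 genes; chance flags about 1 in 20 groups. ACSL4 was at 20.6 TPM in summer E, against 12.1 to 13.5 TPM in the other summer libraries. FABP5 was at 102 TPM in summer C, against 136.5 to 143 TPM in the others. In winter, CPT2 was at 38.5 TPM in winter D, against 27.2 to 28.8 TPM, and ACAA2 was at 21.5 TPM in the same library, against 29.5 to 30.1 TPM. In winter B, ACADL was at 6.58 TPM, against 9.63 to 10.1 TPM in the other winter libraries, and FADS1 was at 43.5 TPM, against 70.0 to 75.3 TPM. Of the wider genes, DBI was at 174 TPM in summer A, against 79.7 to 89.5 TPM, and ECI1 was at 175 TPM in summer C, against 123 to 130.1 TPM.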

How the results depend on the processing

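Scaling to the oocyte markers moved the all-gene median to -1.08 and had the largest effect. Of all 13379 tested genes it called 7122 lower and 7 higher, with 9083 lower and 13 higher at the adjusted p alone. It called 29 of the 42 genes lower, with 36 lower and 0 higher at the adjusted p alone. For the wider genes it called 39 lower and 0 higher, with 47 lower and 0 higher at the adjusted p alone. Under it the difference turned below 0 for DGAT1 (-0.91), ACSL3 (-1.01), ACSL5 (-0.64), ACSL6 (-0.98), LIPE (-0.20), CPT2 (-1.02), HADH (-0.64), ACAA1 (-0.84), ACACA (-0.89), ACACB (-0.38), ELOVL5 (-0.90), CD36 (-1.07), FABP3 (-0.33), FABP5 (-0.19) and PPARG (-0.91), and for GPAT2 (-0.13), GPAT4 (-0.75), LPIN2 (-0.80), MOGAT1 (-0.16), LIPA (-1.11), CROT (-0.11), ECHS1 (-1.08), ELOVL4 (-0.056), HACD4 (-0.34), SLC25A1 (-1.03), OXSM (-0.25) and PPARD (-0.31). These are all 15 of the 42 genes, and 12 of the 14 wider genes named, whose difference was above 0 as deposited. A shift of that size by itself turns any difference smaller than it. Values relative to the shift stand with the results, and they fall near the unscaled differences by construction.

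With a replicate block for the library letters, 0 of the 42 genes were called and 0 were past the adjusted p in either direction, and 1 wider gene was higher (1 also at the adjusted p alone) and 0 lower. The adjusted p under the block was 0.0561 for FABP3, 0.0575 for ACSL4, 0.0715 for FABP5, 0.0816 for PLIN3, 0.0861 for LIPE, 0.0945 for FADS2, 0.0974 for CPT1A, 0.115 for ACACB and 0.133 for HADH, each with its direction kept. The same cows were sampled in both seasons, and the paper dropped a failed summer replicate together with its corresponding winter one. The sources do not say that a letter marks the same cows, and neither C nor D is present in both seasons. The letters were therefore not taken as pairs. Deviations of same-letter libraries correlated at 0.05 (A), 0.14 (B) and 0.20 (E). All 6 libraries with a partner letter correlated best with it among the other season's libraries, a hint that the letters may mark matched pools.

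Among the 42, array weights called 1 higher, and 10 were lower at the adjusted p alone. Array weights also put more of all tested genes past the adjusted p than the main fit did, in both directions. The 10 are therefore not by themselves a result about the 42 genes. Quantile normalization gave 8 lower at the adjusted p alone, where 1596 of all tested genes were lower. A pseudocount of 5 called 1 lower. With no fold limit 5 were higher and 4 lower. Without both letter A libraries 2 were lower at the adjusted p alone. With 1 library left out, 0 to 2 were called higher and 1 to 2 lower, and at the adjusted p alone 4 to 5 were higher and 2 to 7 lower. The cause was not tested.

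Of the wider genes, a pseudocount of 5 called 1 higher and 0 lower, quantile normalization 0 lower, no fold limit 10 higher and 3 lower, and leaving out both letter A libraries 2 lower. At the adjusted p alone, no filter gave 6 higher and array weights 6 lower, where array weights also raised the count of all tested genes that were lower. With 1 library left out, 2 to 6 were called higher and 0 to 2 lower, and 4 to 11 higher and 1 to 3 lower at the adjusted p alone. Quantile normalization called 730 of all genes higher and 577 lower, against 589 and 692 as deposited. TPM keeps no depth, so the precision of scarce genes is unknown.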
